A study of Mus musculus with 5 samples.

Results

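The genes described here are 37 germline genes whose promoters are usually silenced in somatic cells, followed in mouse ESCs (embryonic stem cells) and MEFs (embryonic fibroblasts). A gene was taken when a probe set of the array carried its symbol and no other, with the brightest probe set where there were several, and 36 of the 37 were measured this way among 19938 genes in all. Fkbp6 had no such probe set here and was not analysed. RNA levels came from 5 whole-transcript microarrays, and no group has a replicate. ESCs were represented by an array of 2i ESCs and one of S ESCs. The fibroblasts were control MEFs, 2n 2i MEFs and 4n 2i MEFs, also with an array apiece. All samples carry the same background, an F1 hybrid between 129X1/SvJ and MSM/Ms. By common usage 2i is a culture medium that inhibits the kinases MEK and GSK3. What S, 2n and 4n mean is not stated by the submitters, so they serve as names only. The labels give no age for the MEFs and do not say how many animals, clones or cultures stand behind an array. Titles carry a number, which is 15 for 2i ESCs as well as for 2n 2i MEFs, and otherwise differs (S ESCs 36, control MEFs 4, 4n 2i MEFs 2).

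Germline genes of this kind serve the making of eggs and sperm. They silence transposons through small RNAs that bind Piwi proteins (piRNAs), they build the synaptonemal complex that joins homologous chromosomes in meiosis, and they carry out meiotic recombination. In somatic cells many of their promoters are held silent by DNA methylation of CpG dinucleotides. In ESCs a Polycomb complex that reaches E-boxes through MGA and MAX, and a different site through E2F6, also represses many of them. The 2i medium is known to lower global DNA methylation. The study's title concerns the DNA methylation that female ESCs inherit from the gametes, so the level of these genes in each culture and in the MEFs is a question its design raises.

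Promoter sequences are shown for the members on which the results turn. Dazl and Tuba3a were higher on the 2i than the S ESC array, Mael and Sycp3 were lower there, Hormad1 and Rpl10l had high values on both ESC arrays, and Sycp2 was near the same low value on all 5 arrays. Each sequence holds the 250 bases before the RefSeq start on the strand of the gene, 5′ to 3′, from the RefSeq promoter table of build GRCm38.p6, and capitals mark the CpG dinucleotides, the sites that DNA methylation can occupy. The windows are chr17:50293621-50293870 (minus strand) for Dazl, chr6:125286082-125286331 (minus) for Tuba3a, chr1:166238745-166238994 (minus) for Mael, chr10:88459337-88459586 (plus) for Sycp3, chr3:95559427-95559676 (plus) for Hormad1, chr12:66284402-66284651 (minus) for Rpl10l and chr2:178407659-178407908 (minus) for Sycp2.
Dazl: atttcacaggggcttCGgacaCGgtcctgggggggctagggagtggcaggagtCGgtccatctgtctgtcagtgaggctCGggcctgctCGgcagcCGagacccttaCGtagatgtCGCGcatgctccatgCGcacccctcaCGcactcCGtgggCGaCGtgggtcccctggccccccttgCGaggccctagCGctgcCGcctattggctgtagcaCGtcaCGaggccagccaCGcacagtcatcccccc
Tuba3a: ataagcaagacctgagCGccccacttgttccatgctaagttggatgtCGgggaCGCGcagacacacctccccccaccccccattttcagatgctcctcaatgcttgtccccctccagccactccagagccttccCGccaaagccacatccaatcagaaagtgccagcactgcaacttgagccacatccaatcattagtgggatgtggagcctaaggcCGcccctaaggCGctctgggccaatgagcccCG
Mael: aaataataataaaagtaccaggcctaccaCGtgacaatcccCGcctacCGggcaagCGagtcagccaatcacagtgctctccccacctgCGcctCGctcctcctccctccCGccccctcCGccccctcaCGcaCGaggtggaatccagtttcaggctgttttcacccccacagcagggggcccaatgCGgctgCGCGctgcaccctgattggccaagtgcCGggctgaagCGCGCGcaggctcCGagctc
Sycp3: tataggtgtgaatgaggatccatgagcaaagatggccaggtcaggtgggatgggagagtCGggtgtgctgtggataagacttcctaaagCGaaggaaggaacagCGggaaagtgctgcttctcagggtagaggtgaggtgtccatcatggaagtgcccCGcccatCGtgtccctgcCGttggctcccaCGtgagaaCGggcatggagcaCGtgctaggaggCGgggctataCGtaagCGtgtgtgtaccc
Hormad1: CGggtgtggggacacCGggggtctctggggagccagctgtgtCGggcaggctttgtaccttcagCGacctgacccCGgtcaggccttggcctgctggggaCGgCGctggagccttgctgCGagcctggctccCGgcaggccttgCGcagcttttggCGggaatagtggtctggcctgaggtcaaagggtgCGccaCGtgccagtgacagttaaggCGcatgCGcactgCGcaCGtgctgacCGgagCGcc
Rpl10l: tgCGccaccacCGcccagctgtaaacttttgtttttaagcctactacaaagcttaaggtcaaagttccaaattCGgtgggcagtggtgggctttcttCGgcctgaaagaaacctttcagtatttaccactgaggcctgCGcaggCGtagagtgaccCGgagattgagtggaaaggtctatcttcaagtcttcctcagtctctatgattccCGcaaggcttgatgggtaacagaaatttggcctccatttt
Sycp2: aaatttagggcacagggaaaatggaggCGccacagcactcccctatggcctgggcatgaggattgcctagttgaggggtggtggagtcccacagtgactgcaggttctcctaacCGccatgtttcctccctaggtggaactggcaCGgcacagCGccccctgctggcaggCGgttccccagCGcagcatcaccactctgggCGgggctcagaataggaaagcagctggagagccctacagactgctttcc

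Over these 250 bases Dazl holds 20 CpGs, Hormad1 19, Mael 18, Sycp3 12, Tuba3a 8, Rpl10l 8 and Sycp2 7. A window of 300 bases, which adds the 50 bases after the start, was listed for 32 of the 36 measured members, and the first window was used where several were listed (4 members). The 32 windows held between 6 CpGs (Msh4) and 48 (Tdrd5), with a median of 19.5, against a median of 7 over the windows of 27025 genes and of 13 over those of 17492 protein-coding genes. The observed to expected CpG ratio had a median of 0.71 in the members and 0.58 in protein-coding genes.

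An E-box, searched as the letters CACGTG, which read the same on either strand, stood in 14 of the 32 member windows (43.8%) and in 7.24% of the windows of all genes (7.9% of protein-coding genes). The core of the E2F6 site, searched as TCCCGC on either strand, stood in 16 member windows (50%), in 20% of all windows and in 25.7% of protein-coding ones. Both motifs were found in 7 member windows (21.9%, against 2.05% of all windows), those of Ddx4, Mael, Sycp1, Sycp3, Hormad1, Stag3 and Slc25a31, and no pair of matches overlapped. Hormad1 holds its E-boxes 57 and 20 bases before the start and its E2F6 core 95 bases before it. Sycp3 holds E-boxes 64 and 43 bases before the start and an E2F6 core 147 bases before it. Rpl10l has an E2F6 core 43 bases before the start and Tuba3a one 119 bases before it. Neither motif's letters were in the windows of 9 members, Dazl, Asz1, Tdrkh, Sycp2, Syce1, Msh4, Mei1, Tex101 and Dpep3. Such matches describe the sequence only. The map of CpGs and motif matches shows them for all 32 windows.

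**Figure D1:**
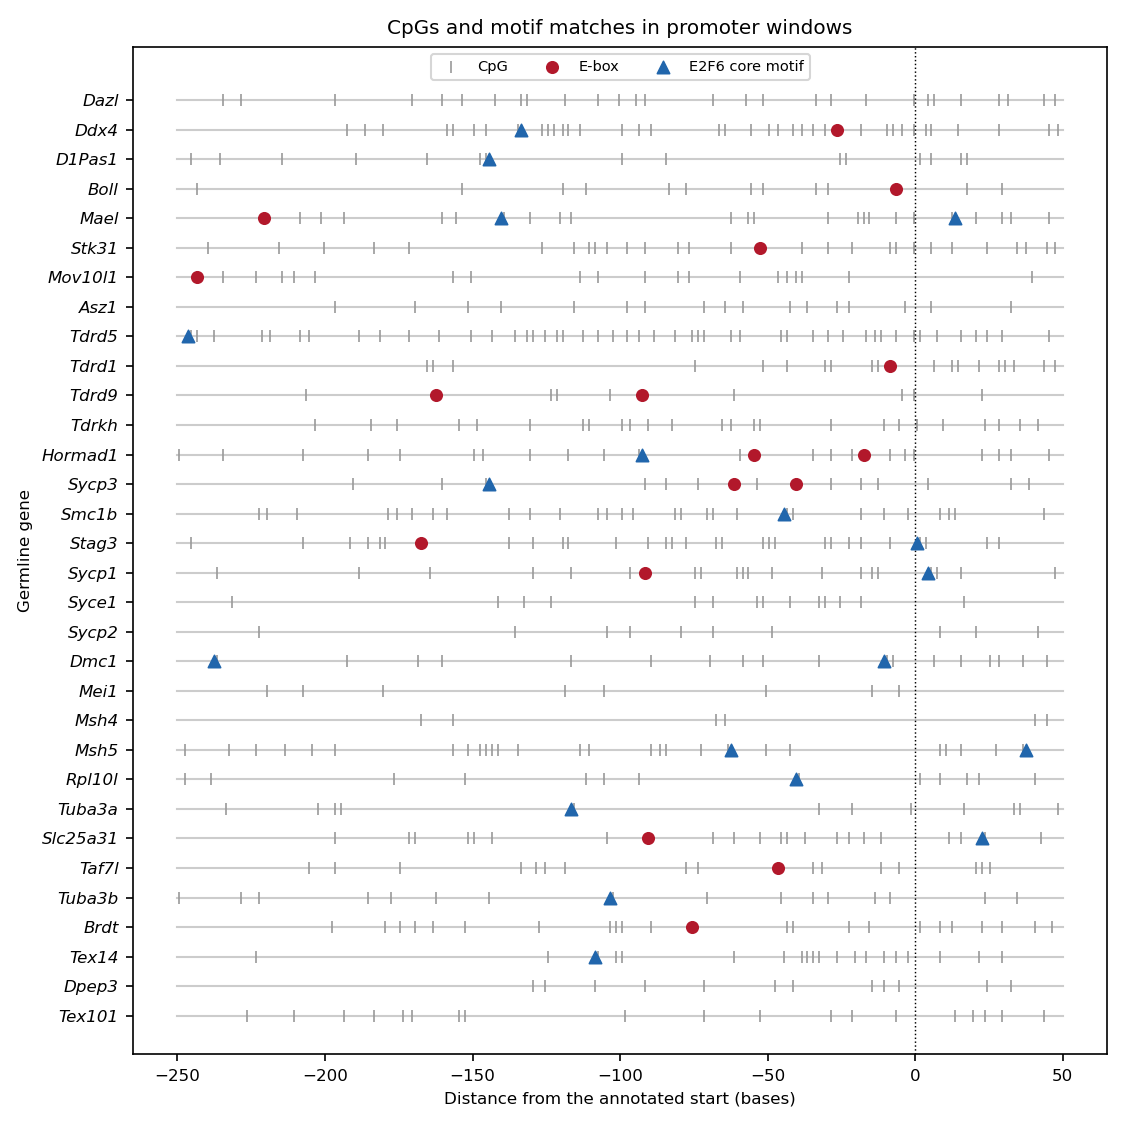
Promoter windows of the 32 germline genes with a RefSeq window, by distance from the annotated start in bases. Grey ticks are CpGs, red circles E-boxes and blue triangles cores of the E2F6 site, found in 14 and 16 of the windows.

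The cells' labels went with their defining markers. With every gene tested, all 8 measured pluripotency markers, among them Pou5f1 and Nanog, were called higher in ESCs, as were 10.6% of all genes. All 8 measured fibroblast markers, among them Postn and Col1a1, were called lower, as were 9.91% of all genes. A gene is called here when limma, fitted across all genes tested with the 2 ESC arrays against the 3 MEF arrays, gives a Benjamini-Hochberg adjusted p under 0.05 and a difference of at least 2-fold on the scale log2(intensity + 1). The spread in this fit is that between conditions, and the small number of arrays limits the precision. Many values were exactly identical between MEF arrays. All 3 MEF arrays shared 1 value for 18 of the 36 germline genes and for 30.3% of all genes, so MEF values listed as equal are not read as measured equality, and the p-values of such genes hold no measured spread between MEF arrays.

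Germline genes were expressed higher in ESCs than in MEFs, though only part of them reached the middle of the array's intensity range. Of the 36 measured genes, 27 were called higher in ESCs and 0 lower by limma when every gene was tested, where 10.6% of all 19938 genes were called higher and 9.91% lower. The median difference of the 36 was 1.76 (log2), against 0.06 over all genes. Every ESC value lay above every MEF value for 34 of the 36, while 43.9% of all genes showed this. Tdrkh had every ESC value below every MEF value, and Sycp2 had values that overlapped.

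Intensities were set against a floor, the median intensity of the gene-named probe sets of an array, between 217.9 and 240.1 intensity units on the 5 arrays. On either ESC array 16 germline genes reached the floor, 14 of them on both and 18 on at least 1, and none did on any MEF array. About 50% of all genes reach the floor of an array by construction. On the 2i ESC array the 36 genes ranged from 34.0 to 5692 intensity units with a median of 199.5, and on the S ESC array from 35.3 to 2153 with a median of 182. On the MEF arrays they ranged from 25.9 to 201.1, with medians between 61.1 and 63.0. Limited to genes past the floor on at least 1 array, 17 of 18 germline genes were called higher in ESCs, with 16.6% of 11855 genes called higher and 16.2% lower. All 18 passed through an ESC array, so they had to differ and this count carries no support of its own. Below, standard errors and adjusted p-values of these 18 genes and of general counterparts come from this fit. Those of genes below the floor come from the fit of every gene. With every gene tested the same 17 were called, with adjusted p no higher than 0.0242 in limma (Tuba3a). In bulk RNA, fewer cells that express a gene and less RNA per cell cannot be told apart. The plot of intensities by array shows the MEF arrays gathered to the left of the floor for every gene.

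**Figure D2:**
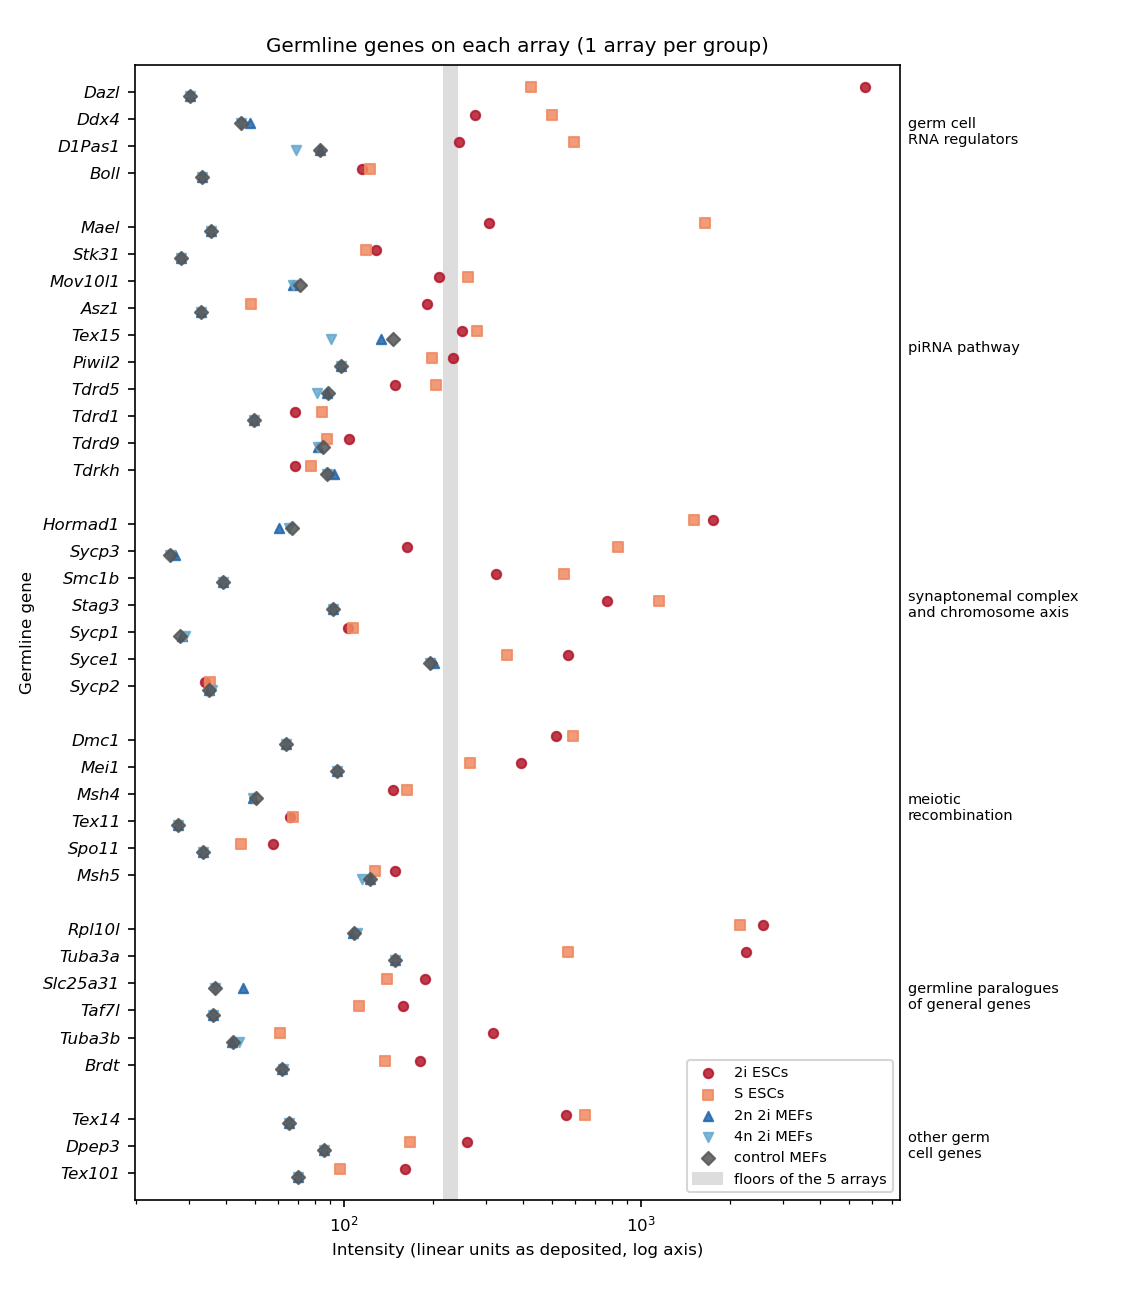
Intensity (linear units on a log axis) of the 36 germline genes on each of the 5 arrays, 1 symbol per array, grouped by role, with the grey band spanning the floors from 217.9 to 240.1. ESC symbols run up to 5692 for Dazl, while all MEF symbols lie at or below 201.1.

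Among the germ cell RNA regulators, all 4 genes were called higher in ESCs when every gene was tested (10.6% of all genes were). Of these 4, 3 reached the floor, through ESC arrays only, as in every role below. Dazl (Entrez Gene 13164) encodes an RNA-binding protein that germ cells need to develop and to enter meiosis. Its intensity was 5692 in 2i ESCs, 427 in S ESCs and 30.2 on each MEF array. The ESC values were far apart, and both lay well above the shared MEF value. The log2 difference between ESCs and MEFs was 5.64 ± 1.14 (SE), with an adjusted p of 0.0139 in limma. It was 7.51 with the 2i array as the only ESC array and 3.78 with the S array as the only one. Ddx4 (Entrez Gene 13206), the RNA helicase known as Vasa, measured 275 in 2i ESCs, 503 in S ESCs, 48.4 in 2n 2i MEFs, 44.9 in 4n 2i MEFs and 44.9 in control MEFs, a log2 difference of 2.99 ± 0.28 (SE) with an adjusted p of 0.00164 in limma. D1Pas1 (Entrez Gene 110957), an autosomal testis copy of the X-linked helicase gene Ddx3x, measured 243 in 2i ESCs, 596 in S ESCs, 83.0 in 2n 2i MEFs, 69.1 in 4n 2i MEFs and 83.0 in control MEFs, a log2 difference of 2.27 ± 0.41 (SE) with an adjusted p of 0.0101 in limma. Ddx3x measured 4474 in 2i ESCs, 6161 in S ESCs, 3798 in 2n 2i MEFs, 2328 in 4n 2i MEFs and 4225 in control MEFs. Its log2 difference was 0.65 and was not called (adjusted p = 0.145 in limma). Since the sequences are close, probes for one could pick up the other, which was not tested. Boll, which encodes another RNA-binding protein of the DAZ family, stayed below the floor at 115 in 2i ESCs, 122.5 in S ESCs and 33.3 on each MEF array.

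The piRNA pathway was split. Of its 10 measured genes, 6 were called higher in ESCs when every gene was tested (10.6% of all genes were). Of these 6, 3 passed the floor. Mael (Entrez Gene 98558), needed to silence transposons in germ cells, had an intensity of 309 in 2i ESCs, 1641 in S ESCs and 35.7 on each MEF array, so that the S array was the higher of the ESC arrays. Its log2 difference was 4.28 ± 0.74 (SE), with an adjusted p of 0.00885 in limma. It was 3.08 with the 2i array as the only ESC array and 5.49 with the S array as the only one. Mov10l1, a helicase that starts piRNA processing, measured 209 in 2i ESCs, 261 in S ESCs, 67.3 in 2n 2i MEFs, 67.3 in 4n 2i MEFs and 70.9 in control MEFs (log2 difference 1.76 ± 0.13 (SE), adjusted p 0.000883 in limma), with only the S array at its floor. Tex15, which acts in piRNA-directed DNA methylation and in meiotic recombination, measured 250.4 in 2i ESCs, 279 in S ESCs, 133 in 2n 2i MEFs, 90.6 in 4n 2i MEFs and 146 in control MEFs. Its log2 difference of 1.12 ± 0.24 (SE) (adjusted p 0.0162 in limma) fell out of the calls without the 2i ESC array (1.20, adjusted p = 0.105), without the S ESC array (1.04, adjusted p = 0.134) or without the 4n 2i MEF array (0.92, adjusted p = 0.00786), in the last case because it was under 2-fold.

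Below the floor, the Piwi protein gene Piwil2 measured 232 in 2i ESCs, 198 in S ESCs and 97.9 on each MEF array, which is just under the floor of 240.1 on the 2i array. Stk31, with Tudor and kinase domains, measured 128 in 2i ESCs, 118 in S ESCs and 28.3 on each MEF array, and its log2 difference of 2.08 was called (adjusted p = 0.00022 in limma with every gene tested). Tdrd5, a Tudor domain gene, measured 148 in 2i ESCs, 204 in S ESCs, 87.7 in 2n 2i MEFs, 81.4 in 4n 2i MEFs and 88.1 in control MEFs. Asz1, which acts in the germ granules beside mitochondria, measured 190.1 in 2i ESCs, 48.7 in S ESCs and 33.0 on each MEF array, so the 2i array stood apart from the other 4, and the difference was not called (adjusted p = 0.112 in limma). The Tudor genes Tdrd1, Tdrd9 and Tdrkh had ESC values between 68.6 and 103.9 and were not called. Tdrkh, whose product helps trim piRNAs at mitochondria, was the member with lower ESC values, at 68.6 in 2i ESCs, 77.6 in S ESCs, 92.9 in 2n 2i MEFs, 87.4 in 4n 2i MEFs and 87.4 in control MEFs, a log2 difference of -0.29 (adjusted p = 0.0351 in limma) that stayed under 2-fold.

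The synaptonemal complex and the chromosome axis of meiosis gave calls for 6 of 7 genes when every gene was tested. Of these 6, 5 passed the floor, and 10.6% of all genes were called higher in the fit of every gene. Hormad1 (Entrez Gene 67981), which binds unsynapsed chromosome axes, had an intensity of 1749.5 in 2i ESCs, 1506 in S ESCs, 60.2 in 2n 2i MEFs, 65.3 in 4n 2i MEFs and 66.9 in control MEFs. ESC and MEF values were far apart and the ESC arrays close together, with a log2 difference of 4.64 ± 0.11 (SE) and an adjusted p of 0.00017 in limma. A second Hormad1 probe set gave 408 in 2i ESCs, 488 in S ESCs and 23.5 on each MEF array. The meiotic cohesin genes behaved alike in sign. Stag3 measured 770.2 in 2i ESCs, 1151 in S ESCs and 91.9 on each MEF array (log2 difference 3.34 ± 0.19 (SE), adjusted p 0.000555 in limma), and Smc1b measured 326 in 2i ESCs, 550.1 in S ESCs and 39.1 on each MEF array (log2 difference 3.40 ± 0.24 (SE), adjusted p 0.000863 in limma).

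Sycp3 (Entrez Gene 20962), a protein of the lateral elements, had an intensity of 163 in 2i ESCs, 836 in S ESCs, 27.0 in 2n 2i MEFs, 25.9 in 4n 2i MEFs and 25.9 in control MEFs. The S array was high and the 2i array lay below its floor, though above every MEF value. The log2 difference was 3.76 ± 0.72 (SE) (adjusted p 0.012 in limma), and without the S ESC array Sycp3 no longer passed the floor. Syce1, of the central element, measured 569.9 in 2i ESCs, 355 in S ESCs, 201 in 2n 2i MEFs, 194.5 in 4n 2i MEFs and 194.5 in control MEFs. Its log2 difference of 1.19 ± 0.22 (SE) (adjusted p 0.011 in limma) was 0.85 without the 2i ESC array and then under 2-fold. Sycp1, which forms the transverse filaments, stayed below the floor at 103 in 2i ESCs, 107.5 in S ESCs, 28.4 in 2n 2i MEFs, 29.1 in 4n 2i MEFs and 28.0 in control MEFs, with a log2 difference of 1.85 (adjusted p = 0.000214 in limma with every gene tested). Sycp2, the lateral element partner of Sycp3, measured 34.0 in 2i ESCs, 35.3 in S ESCs, 35.1 in 2n 2i MEFs, 35.8 in 4n 2i MEFs and 35.1 in control MEFs. No difference between cell types was detectable at this signal.

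Of 6 genes of meiotic recombination, 4 were called higher in ESCs when every gene was tested (10.6% of all genes were). Of these 4, 2 passed the floor. Dmc1, the recombinase of meiotic strand exchange, measured 518 in 2i ESCs, 589.9 in S ESCs and 63.6 on each MEF array (log2 difference 3.10 ± 0.09 (SE), adjusted p 0.000208 in limma). Mei1, needed for meiotic double-strand breaks, measured 394 in 2i ESCs, 266 in S ESCs and 94.9 on each MEF array (log2 difference 1.76 ± 0.19 (SE), adjusted p 0.00237 in limma). The ESC arrays lay close together for Dmc1, and the 2i array was the higher for Mei1. The crossover genes Msh4 and Msh5 both stayed below the floor. Msh4 measured 147 in 2i ESCs, 163 in S ESCs, 49.5 in 2n 2i MEFs, 49.5 in 4n 2i MEFs and 50.5 in control MEFs and was called, while its partner Msh5 measured 149 in 2i ESCs, 127 in S ESCs, 122 in 2n 2i MEFs, 115 in 4n 2i MEFs and 122 in control MEFs and was not. Tex11, an X-linked gene of crossover formation, measured 65.6 in 2i ESCs, 67.5 in S ESCs and 27.7 on each MEF array and was called (log2 difference 1.24, adjusted p = 0.000288 in limma with every gene tested). Spo11, whose product cuts DNA to start recombination, measured 57.5 in 2i ESCs, 45.1 in S ESCs and 33.5 on each MEF array and was not called.

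Germline paralogues of widely expressed genes were called higher in 5 of 6 cases when every gene was tested (10.6% of all genes were). Of these 5, 2 passed the floor. Rpl10l (Entrez Gene 238217), the autosomal counterpart of the ribosomal protein gene Rpl10, had an intensity of 2575 in 2i ESCs, 2153 in S ESCs, 108 in 2n 2i MEFs, 110.5 in 4n 2i MEFs and 108 in control MEFs, a log2 difference of 4.42 ± 0.11 (SE) with an adjusted p of 0.00017 in limma. Rpl10 on the X chromosome had a log2 difference of 0.06 and was not called (adjusted p = 0.567 in limma). The alpha tubulin genes Tuba3a and Tuba3b stood high on the 2i array. Tuba3a measured 2252 in 2i ESCs, 569.7 in S ESCs and 148 on each MEF array (log2 difference 2.93 ± 0.61 (SE), adjusted p 0.0152 in limma), and Tuba3b measured 317 in 2i ESCs, 60.9 in S ESCs, 42.0 in 2n 2i MEFs, 44.2 in 4n 2i MEFs and 42.3 in control MEFs and was not called (log2 difference 1.68 ± 0.72 (SE), adjusted p 0.108 in limma). Tuba3b was called without the S ESC array (2.86, adjusted p = 0.000456). These tubulins are near-identical copies whose probes could share RNA, so their values are uncertain as separate measurements.

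The other 3 paralogues stayed below the floor. Taf7l, the X-linked germline form of a general transcription factor subunit, measured 158 in 2i ESCs, 112 in S ESCs and 36.3 on each MEF array. Slc25a31, the germline ADP/ATP carrier, measured 187 in 2i ESCs, 140.1 in S ESCs, 45.8 in 2n 2i MEFs, 36.7 in 4n 2i MEFs and 36.7 in control MEFs. The bromodomain gene Brdt, which acts on chromatin in male germ cells, measured 181 in 2i ESCs, 137 in S ESCs, 61.9 in 2n 2i MEFs, 62.5 in 4n 2i MEFs and 61.9 in control MEFs. Each was called, with log2 differences of 1.85, 2.01 and 1.33. The widely expressed Taf7 was also higher in ESCs (2.17, adjusted p = 0.000311 in limma), while the carrier genes Slc25a4 (-0.64) and Slc25a5 (0.75) and the bromodomain genes Brd2 (-0.16) and Brd3 (0.38) were not called. Of 16 general counterparts tested past the floor, 5 were called higher and 1, the dipeptidase gene Dpep1, lower. Of all 11855 genes in that fit, 16.6% were called higher and 16.2% lower. Dpep1 had passed the floor through the MEF arrays only. It was not called with every gene tested (adjusted p = 0.0553 in limma).

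Of the other germ cell genes, Tex14, needed for the bridges between germ cells, measured 558 in 2i ESCs, 649 in S ESCs and 65.2 on each MEF array (log2 difference 3.19 ± 0.10 (SE), adjusted p 0.000215 in limma). Dpep3, a membrane dipeptidase of testis, measured 259 in 2i ESCs, 166 in S ESCs and 85.4 on each MEF array (log2 difference 1.27 ± 0.21 (SE), adjusted p 0.00758 in limma), with only the 2i array at its floor. Tex101, a germ cell surface glycoprotein, measured 159.9 in 2i ESCs, 97.3 in S ESCs and 69.9 on each MEF array and was not called. The plot of differences between ESCs and MEFs shows Dazl, Hormad1, Rpl10l and Mael farthest to the right.

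**Figure D3:**
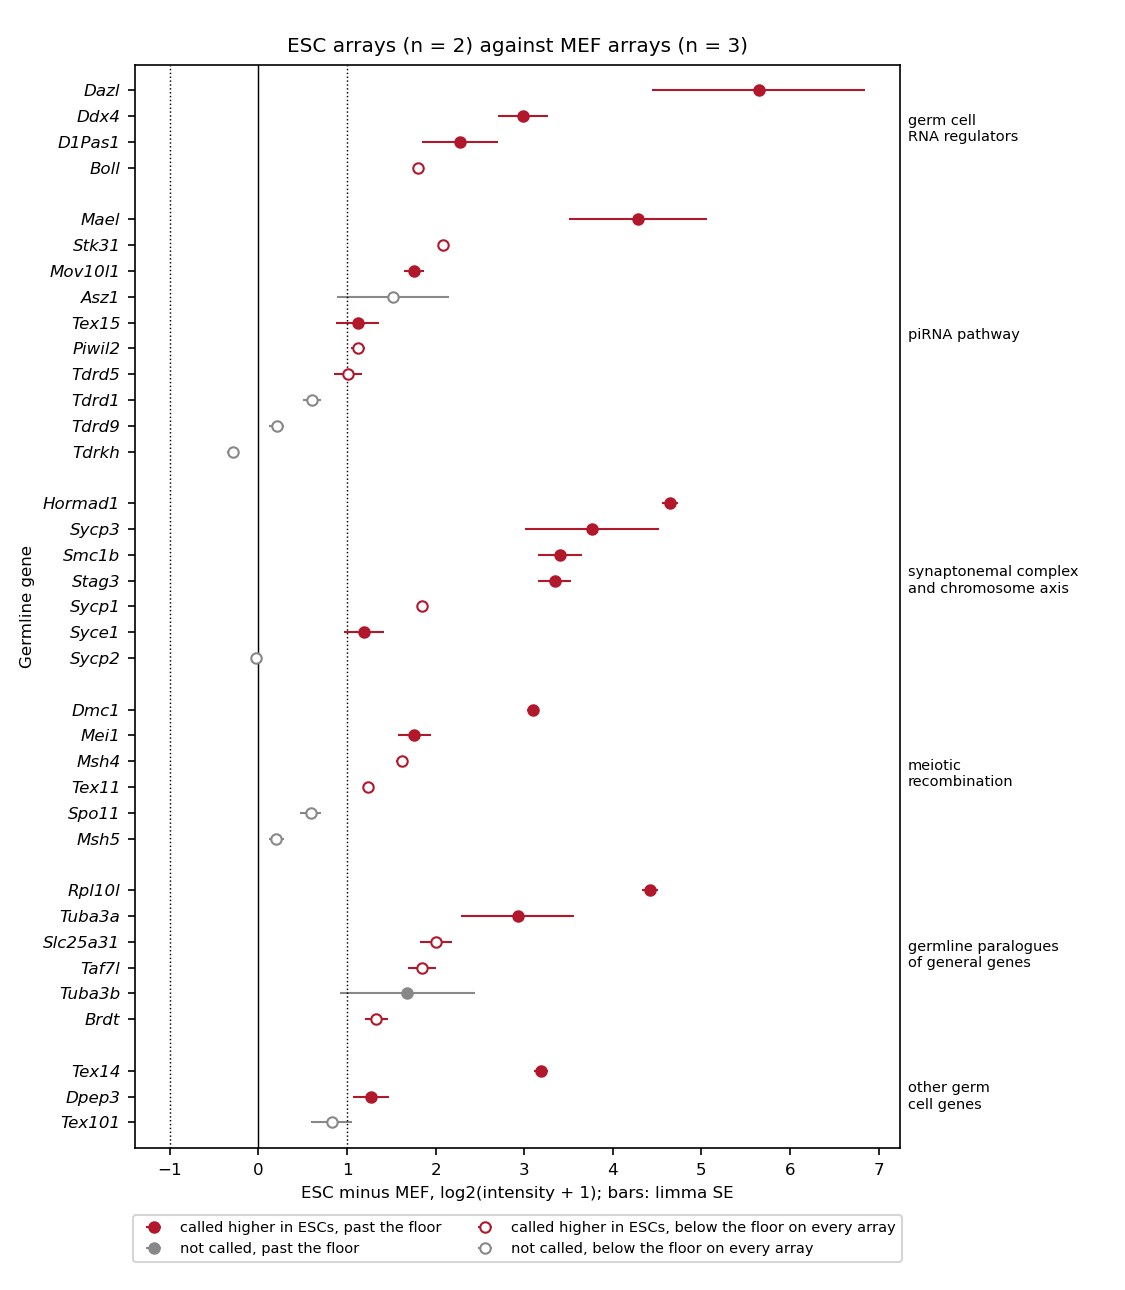
Difference between the 2 ESC arrays and the 3 MEF arrays for 36 germline genes, as log2(intensity + 1), with the limma standard error from the fit of every gene. Red symbols were called higher in ESCs, grey ones were not, open symbols lay below the floor on every array, and dotted lines mark 2-fold. The points run from -0.29 (Tdrkh) to 5.64 (Dazl).

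These calls rest in part on MEF values without spread. Of the 17 genes called past the floor, 9 had 1 value on all MEF arrays and 5 had 2 values. Among genes past the floor that differed on all 3 MEF arrays, 4 germline genes were tested and 3 called higher, Hormad1, Rpl10l and Tex15. Of all 7903 such genes, 13% were called higher and 20.1% lower. As in every count past the floor, the 4 had passed it through an ESC array, so this count carries no support of its own. With every gene tested, 5 of the 7 germline genes with 3 different MEF values were called higher. The 10.6% of all genes called higher in that fit includes genes with equal MEF values. The share among all genes with 3 different MEF values was not computed without a floor, so the 5 of 7 has no like share beside it. Leaving out 1 array at a time, between 14 and 17 germline genes were called higher past the floor.

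Between the ESC arrays, germline genes went in both directions. With 1 array on each side there is no replicate check and no test. Of the 18 germline genes past the floor, 3 were higher by 2-fold or more on the 2i array (2.78% of all 10493 genes past the floor were), 3 were at least 2-fold lower (2.54%), and 12 lay within 2-fold. Their median was -0.17 (log2), against -0.04 over all genes compared. Tuba3b had passed the floor through the 2i array only and Sycp3 through the S array only, each the array where it was high. The counts past the floor therefore carry no support of their own. With every one of the 36 included, 4 were at least 2-fold higher and 3 lower, against 1.67% and 1.54% of all genes, and 18 lay on each side of 0.

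The genes higher by 2-fold or more on the 2i array were Dazl (13.3-fold, 5692 against 427), Tuba3b (5.13-fold, 317 against 60.9) and Tuba3a (3.95-fold, 2252 against 569.7), and below the floor Asz1 (3.84-fold, 190.1 against 48.7). For Asz1 and Tuba3b the S value was nearer to the MEF values of the same probe set than to the 2i value, with MEF values at 33.0 on each MEF array for Asz1 and between 42.0 and 44.2 for Tuba3b. For Dazl the S value of 427 was still far from the MEF value of 30.2. The genes lower by 2-fold or more on the 2i array were Mael (5.30-fold, 309 against 1641), Sycp3 (5.11-fold, 163 against 836) and D1Pas1 (2.44-fold, 243 against 596). On the 2i array each still lay above its MEF values, Mael at 309 against 35.7 and Sycp3 at 163 against 25.9 to 27.0. Ddx3x, the close copy of D1Pas1, was also lower on the 2i array, with a log2 difference of -0.46.

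By role, the cohesin genes Stag3 (log2 difference -0.58) and Smc1b (-0.75) and the helicase gene Ddx4 (-0.87) were lower on the 2i array within 2-fold. Syce1 (0.68), Dpep3 (0.63) and Mei1 (0.57) were higher within 2-fold. Hormad1 (0.22), Rpl10l (0.26), Dmc1 (-0.19), Tex14 (-0.22) and Tex15 (-0.16) differed little. The sign for Hormad1 was not stable, since the mean of its probe sets gave -0.02. Of the X-linked members, Taf7l was 1.40-fold higher on the 2i array and Tex11 differed by 1.03-fold. The bar plot of the ESC arrays shows a flat middle with a few genes far out at either end.

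**Figure D4:**
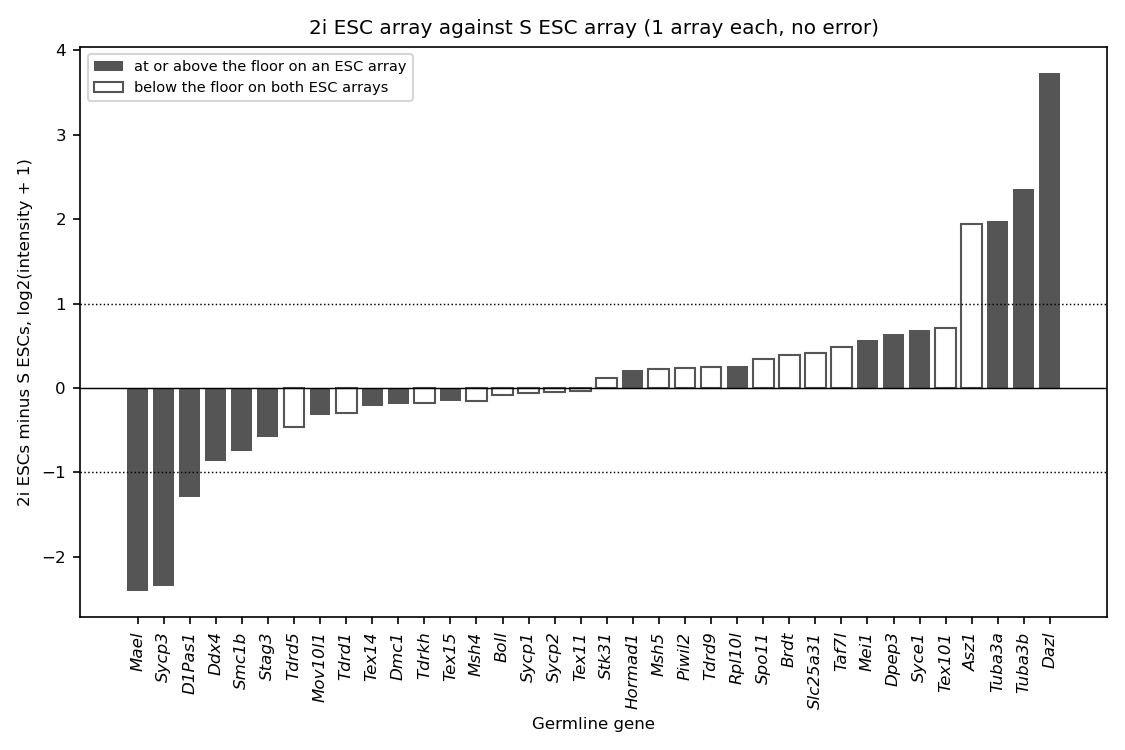
Difference of the 2i ESC array minus the S ESC array for each of 36 germline genes, as log2(intensity + 1), with 1 array each and no error. Filled bars reached the floor on an ESC array, open bars did not, and dotted lines mark 2-fold. The bars run from -2.41 for Mael to 3.73 for Dazl.

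Other measured genes moved with this comparison. The de novo DNA methyltransferase gene Dnmt3b stood at 373 on the 2i array and 1667 on the S array, and Dnmt3a at 517 and 1105. Of 20 listed regulators of germline gene silencing these were the 2 that lay 2-fold or more lower on the 2i array. Of the regulators, 0 were that much higher. Among all 10493 genes past the floor, 2.54% were that much lower and 2.78% higher. Next among the regulators came Cbx1 (-0.55), the demethylase gene Tet1 (-0.48), L3mbtl2 (-0.39) and Pcgf6 (-0.22). Named for their role after their values were seen, the maintenance methylation genes Dnmt1 (-0.15) and Uhrf1 (0.03) and the Polycomb partners Mga (-0.11), E2f6 (-0.11) and Max (-0.21) also lay within 2-fold. All 8 measured fibroblast markers were lower on the 2i array, 1 of 4 past the floor by at least 2-fold. That marker, Dcn, had passed the floor through the S array only, so its count carries no support. The summed intensity of the 8 was 1845 on the 2i array, 2772 on the S array and 46959 to 66303 on the MEF arrays. Mael, Sycp3 and D1Pas1 had MEF values no higher than 35.7, 27.0 and 83.0. Whether the methyltransferases, or fibroblast RNA on the ESC arrays, had a part in the differences was not tested.

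No germline gene differed by as much as 2-fold between any pair of MEF arrays. None reached the floor on a MEF array, so none entered a comparison past the floor, where 1.47% of genes exceeded 2-fold upwards and 0.432% downwards on the 2n 2i against the control MEF array. These shares were 5.22% and 3.41% on the 4n 2i against the control array, and 3.33% and 2.36% on the 4n against the 2n array. The pairs share arrays and are not independent. With every gene included, the shares were, in the same order, 0.808% and 0.221%, 2.98% and 1.86%, and 1.96% and 1.29%, and 0 of 36 germline genes were past 2-fold in each. The 2n and control arrays share 1 value for 21 of the 36 germline genes, the 4n and control arrays for 23, and the 4n and 2n arrays for 21. The widest difference was in Tex15, at 133 in 2n 2i MEFs, 90.6 in 4n 2i MEFs and 146 in control MEFs, a log2 difference of -0.69 between the 4n and control arrays. Slc25a31 was next, at 45.8 in 2n 2i MEFs and 36.7 on the other MEF arrays. Dazl, whose values set the ESC arrays so far apart, was listed at 30.2 on all 3 MEF arrays, the 2n 2i MEF array with the title number of the 2i ESCs included. At this signal a low level of germline RNA in MEFs would not be detectable. Of the macrophage markers, Lyz2 and Cd68 reached the floor on all 3 MEF arrays. Lyz2 measured 429 in 2n 2i MEFs, 5913 in 4n 2i MEFs and 689 in control MEFs, and Cd68 347, 4217 and 444. The other markers past the floor passed it through the 4n 2i array only, so their count carries no support. Ptprc stayed below it, at 85.2 in 2n 2i MEFs, 188 in 4n 2i MEFs and 97.1 in control MEFs.

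Germline genes outside the 37 are given over all measured members of each list, with every gene tested, where 10.6% of all genes were called higher in ESCs and 9.91% lower. Most of those past the floor had passed it through an ESC array only, so a count limited to them carries no support. Of 11 other piRNA pathway genes, 4 were called higher and 1 lower, with a median log2 difference of 0.60. Tdrd12, a Tudor and helicase gene, was at 1930 in 2i ESCs, 2262 in S ESCs and 36.4 to 37.7 on the MEF arrays (log2 difference 5.79, adjusted p = 0.000116 in limma among genes past the floor), while Tdrd7, also used outside the germline, was lower in ESCs (-1.10, adjusted p = 0.00176 in the same fit). Of 23 other meiosis genes, 14 were called higher, with a median of 1.42. They included the crossover regulator gene Ccnb1ip1 (4.01), Meioc (3.95), which sustains meiotic prophase, and the central element gene Syce2 (3.25). Of 8 genes of primordial germ cells, the embryonic precursors of eggs and sperm, 6 were called higher, with a median of 1.69. Kit (4.05) and Prdm14 (4.02) had the largest differences, and all 6 lay within 2-fold between the ESC arrays.

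Genes of late germ cell stages were mostly not measured above the floor. Of 12 spermatid genes, protamines and transition proteins included, 0 reached it on any array. Of 16 oocyte genes, 3 were called higher in ESCs with every gene tested, Ooep (4.97), Sohlh2 (4.68) and Zp3 (2.21). The median of the 16 was -0.03, and 10.6% of all genes were called higher in this fit. Among 14 measured germline and placental genes with methylation-silenced promoters, 7 were called higher with every gene tested, with a median of 1.18. Trap1a (5.41) and Rhox9 (3.35) had the largest differences among them. Between the ESC arrays, the other germline genes were compared past the floor only. These were 4 piRNA pathway, 12 meiosis, 6 primordial germ cell, 6 methylation-silenced, 4 oocyte and 0 spermatid genes. Xlr (log2 difference 2.97), Rec114 (1.83), Gpat2 (1.75) and Sohlh2 (1.61) were higher by 2-fold or more on the 2i array. Zcwpw1 (-1.74) and Meioc (-1.08) were lower by 2-fold or more. Of all 10493 genes past the floor, 2.78% were that much higher and 2.54% lower. Xlr and Gpat2 had passed the floor through the 2i array only, and Zcwpw1 through the S array only. Each had passed only on the array where it was high, so these differences carry no support of their own. Of the 20 regulators of silencing, all past the floor, 11 were called higher in ESCs, where 16.6% of 11855 genes past the floor were. The largest differences were those of Tet1 (3.71), which removes DNA methylation, Dnmt3b (2.89), Hells (2.86), Uhrf1 (2.56), Pcgf6 (2.27) and L3mbtl2 (2.22). E2f6 (-0.41) and Max (-0.35), again named for their role, were not called.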

How the data were processed

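The labels' protocols name a spin-column kit for total RNA and enzymatic fragmentation with biotin labelling for whole-transcript arrays. For 28853 probe sets the authors deposited intensity values on a linear scale, and their background correction, summarisation and normalization were not given in the sources used here. Median intensity lay between 170.2 and 192 across the arrays, which have no sequencing depth.

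Annotation gave 1 gene symbol to 21789 probe sets, several to 1621 and no symbol to 5443. Entrez Gene numbers updated the symbols of 21698 probe sets through RefSeq genes of GRCm38.p6. All values were analysed as log2(intensity + 1). Pairs of arrays were compared by a 2-fold threshold, among genes at the floor on either array. Limma 3.58.1 in R 4.3.3 compared ESC with MEF arrays and was tested on simulated data. The labels do not say that samples came from separate cultures, so p-values measure only the spread between these samples. Members and gene lists were chosen with earlier results of these data known. Every measured member could be named, with up to 6 genes per other list and comparison (the largest differences past the floor) and any general counterpart of a member. The alternatives were: every gene without a floor; a 75th percentile floor; quantile-normalized arrays; averaged probe sets; a pseudocount of 16; a 3-fold threshold; a robust prior with an intensity trend; genes with 3 different MEF values; and each array left out. Python 3.11.15, numpy 2.4.6, pandas 2.3.3 and matplotlib 3.10.9 were used.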

Additional observations from a re-analysis of the deposited data

How the results depend on the processing

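Of the germline genes called higher in ESCs (17 past the floor), 27 were called with no floor, 6 of 6 tested with the floor at the 75th percentile and 3 of 4 tested among genes that differ on all MEF arrays, each because other genes were tested. Leaving out 1 array at a time gave 14 to 17, and the other alternatives gave 14 to 17 as well. The count of genes lower in ESCs was 0 under every alternative run. The count at least 2-fold lower on the 2i than the S ESC array went from 3 to 1 with the floor at the 75th percentile, where 6 germline genes were compared, and the count higher stayed between 2 and 4. Between MEF arrays 0 of 36 germline genes were past 2-fold without a floor, and under the alternatives with a floor 0 could be compared. Germline genes passed each floor through an ESC array only, so the counts of calls with a floor carry no support of their own. The one change of sign was Hormad1 between the ESC arrays, at -0.02 with the mean of its probe sets. No paired analysis was possible because each group had 1 array and only 1 title number was shared by a pair of groups. Signal over background limits the 18 germline genes that stayed below the floor on every array.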
